A study of Mus musculus with 8 samples.

Results

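The genes described here encode parts of the motile cilium and were chosen by name. They are the symbols of the deposited series-wide table that begin with Dnah, Dnaic, Dnali, Dnaaf, Rsph, Tekt, Cfap or Spef, with Foxj1, Pifo, Ccdc153 and Tmem212 added. Among its 23401 genes, 34 matched, and 31 were kept because they reached 1 TPM, a transcript abundance per gene length in which each library is scaled to the same sum, in at least 2 of the 8 libraries. RNA was sequenced from mouse astrocytes in MGS culture at day 32, MGS culture at day 5, conventional culture (CV) at day 32 and CV at day 5, with 2 libraries in each of these 4 groups. The labels do not spell out MGS, and the sample descriptions call its libraries soft and the CV libraries hard. They give no strain, age or genotype. Nor do they state what the replicates of a group are, so that each p-value reflects the scatter of libraries that could be technical repeats.

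A motile cilium is built on an axoneme, a ring of microtubule doublets around a central pair. Outer and inner dynein arms slide the doublets past each other, radial spokes signal from the central pair to the arms, and tektins are filament proteins of the doublet wall. In the brain, tufts of such cilia are known from ependymal cells, which line the ventricles, and tufts of cilia also from the choroid plexus epithelium, whereas astrocytes are known for a primary cilium without dynein arms. Foxj1 is the transcription factor known to switch on these genes, together with RFX factors that bind a paired DNA motif called the X-box.

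The 31 kept genes comprised 12 of the dynein arms (9 heavy chains, written Dnahc in the files and Dnah in RefSeq, the intermediate chains Dnaic1 and Dnaic2, and the light intermediate chain Dnali1), 3 dynein assembly factors, 5 radial spoke genes, 5 tektins and 6 others. Dnahc17, Dnahc8 and Rsph6a matched by name and were not kept. Dnahc8 lay just outside the threshold, at 0.932 and 0.826 TPM in MGS at day 32. Just inside it were Dnahc7a, at 1.19 and 1.31 TPM in the same libraries, and Tekt3, at 1.87 and 1.304. No symbol of the table began with Cfap (0 of 23401).

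Promoter windows, from 250 bases before to 50 bases after a gene's start, were found in RefSeq (GRCm38.p6) for 27 of the 31 genes, and were missing for Dnaaf1, Foxj1, Rsph1 and Rsph4a. The windows below are shown because their genes range from the strongest differences between the cultures to almost none. Capitals mark GTTGCC or GTTACC, the 6-letter arms of the X-box, read on either strand (GGCAAC or GGTAAC on the other). In Pifo, capitals mark a whole X-box. RefSeq lists several starts for some genes, and the Pifo window shown belongs to a second start inside the gene, while the window at its first start (chr3:106014597-106014896) held 0 X-boxes and 0 arms.
Tekt1, chr11:72361833-72362132, minus strand: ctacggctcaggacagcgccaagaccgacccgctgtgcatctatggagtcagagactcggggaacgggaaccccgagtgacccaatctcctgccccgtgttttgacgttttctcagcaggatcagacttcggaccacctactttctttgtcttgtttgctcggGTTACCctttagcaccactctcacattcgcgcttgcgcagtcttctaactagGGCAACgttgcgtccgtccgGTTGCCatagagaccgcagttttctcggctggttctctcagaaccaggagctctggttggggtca
Dnah10, chr5:124724835-124725134, plus strand: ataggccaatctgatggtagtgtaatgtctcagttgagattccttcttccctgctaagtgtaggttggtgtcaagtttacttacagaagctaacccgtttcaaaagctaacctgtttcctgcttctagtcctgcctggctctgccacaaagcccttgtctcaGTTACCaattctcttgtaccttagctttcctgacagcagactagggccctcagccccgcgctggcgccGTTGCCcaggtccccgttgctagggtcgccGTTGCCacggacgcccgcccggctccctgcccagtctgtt
Pifo, chr3:106001448-106001747, minus strand: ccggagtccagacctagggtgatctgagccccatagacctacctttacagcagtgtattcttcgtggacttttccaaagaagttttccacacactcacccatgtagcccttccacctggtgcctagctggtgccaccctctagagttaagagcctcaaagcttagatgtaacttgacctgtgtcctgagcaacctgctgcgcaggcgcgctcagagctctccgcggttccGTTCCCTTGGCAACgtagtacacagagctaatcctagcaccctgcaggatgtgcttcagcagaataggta
Ccdc153, chr9:44240427-44240726, plus strand: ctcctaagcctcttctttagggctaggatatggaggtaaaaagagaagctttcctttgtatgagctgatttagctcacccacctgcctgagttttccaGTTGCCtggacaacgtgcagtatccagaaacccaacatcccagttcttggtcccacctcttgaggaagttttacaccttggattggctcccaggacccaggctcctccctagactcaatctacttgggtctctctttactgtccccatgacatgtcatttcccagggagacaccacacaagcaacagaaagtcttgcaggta
Tmem212, chr3:27896319-27896618, minus strand: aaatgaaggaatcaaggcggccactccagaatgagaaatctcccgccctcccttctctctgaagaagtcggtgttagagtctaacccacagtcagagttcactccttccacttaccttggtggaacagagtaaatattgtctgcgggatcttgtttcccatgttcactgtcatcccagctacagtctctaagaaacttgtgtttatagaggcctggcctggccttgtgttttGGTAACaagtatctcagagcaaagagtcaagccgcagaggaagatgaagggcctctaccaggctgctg
Rsph3a, chr17:7945364-7945663, plus strand: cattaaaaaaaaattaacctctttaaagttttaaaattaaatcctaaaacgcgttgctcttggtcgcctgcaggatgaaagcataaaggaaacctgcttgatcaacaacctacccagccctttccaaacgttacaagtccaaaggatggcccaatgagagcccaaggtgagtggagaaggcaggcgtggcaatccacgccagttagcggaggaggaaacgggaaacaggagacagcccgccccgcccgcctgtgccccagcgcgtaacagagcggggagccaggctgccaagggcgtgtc
Either arm was present in 16 of the 27 genes with a window (59.3%), against 20.8% of 27025 mouse genes. GTTGCC was found in 12 of these genes (44.4%, against 14.1%) and GTTACC in 8 (29.6%, against 8.16%), and Dnaaf2, Dnah10, Rsph3b and Tekt1 held both. The whole X-box (GTTNCC, 0 to 3 bases, GGNAAC), which can overlap an arm, was found in 1 of the 27, in the second window of Pifo (3.7%, against 0.936%). The forkhead letters GTAAACA stood in 1, Tekt3 (3.7%, against 4.05%). Of the windows shown, Tekt1 and Dnah10 held 3 arms each, and Rsph3a held none. Of those not shown, Dnaaf2 also held 3, and Rsph3b, a near-identical copy of Rsph3a, held 2. Besides Rsph3a, no arm was found for Dnah1, Dnah2, Dnah5, Dnah6, Dnah9, Dnah11, Dnaaf3, Rsph9, Tekt3 and Tekt5. Whether arms go with the difference between the cultures was not tested. These letters are a description of the windows and say nothing of binding.

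The libraries held 2.15 to 4.69 gigabases of aligned sequence, and between 12912 and 14441 genes reached 1 TPM. The replicates differed most in CV at day 32, where the SD of their log2 difference was 0.465, against 0.191 to 0.321 in the other groups. The marker list of astrocytes was measured in full, with all 10 genes at 1 TPM or more in every MGS library and 9 in both libraries of each CV group. Their summed level differed between the cultures, at 13900 to 14000 TPM in MGS at day 32 against 1470 to 1890 TPM in CV. At day 5 it was 17000 to 17200 TPM in MGS against 3500 to 3690 TPM in CV. Fold changes below are differences of log2(TPM + 1), which understate the change of low genes, with the standard error (SE) and the adjusted p of limma over all 14904 genes tested.

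At day 32, all 31 genes were called higher in MGS, and in each of them both MGS libraries stood above both CV libraries. Of all genes tested, 52.8% were called higher and 14.8% lower, and 63.6% had both MGS libraries above both CV libraries and 20.9% below. The median fold change of the 31 genes was 3.15, against 0.558 over all genes, so that it lay 2.59 above that of all genes. Under median-of-ratios scaling the median of all genes was -0.0029, 35.1% of them were called higher and 34.9% lower, and 27 of the 31 genes were called higher and 0 lower. Their summed level was 2190 to 2210 TPM in MGS at day 32 against 489 to 494 TPM in CV at day 32. In bulk RNA, fewer cells of a type and less RNA per cell cannot be told apart. Because 9 of the genes (Dnahc10, Dnahc11, Dnahc2, Dnahc5, Dnahc6, Dnahc7a, Dnaaf1, Tekt3 and Tmem212) reached 1 TPM in no CV library, and so passed the filter only through MGS, counts over the kept genes are a description.

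**Figure D1:**
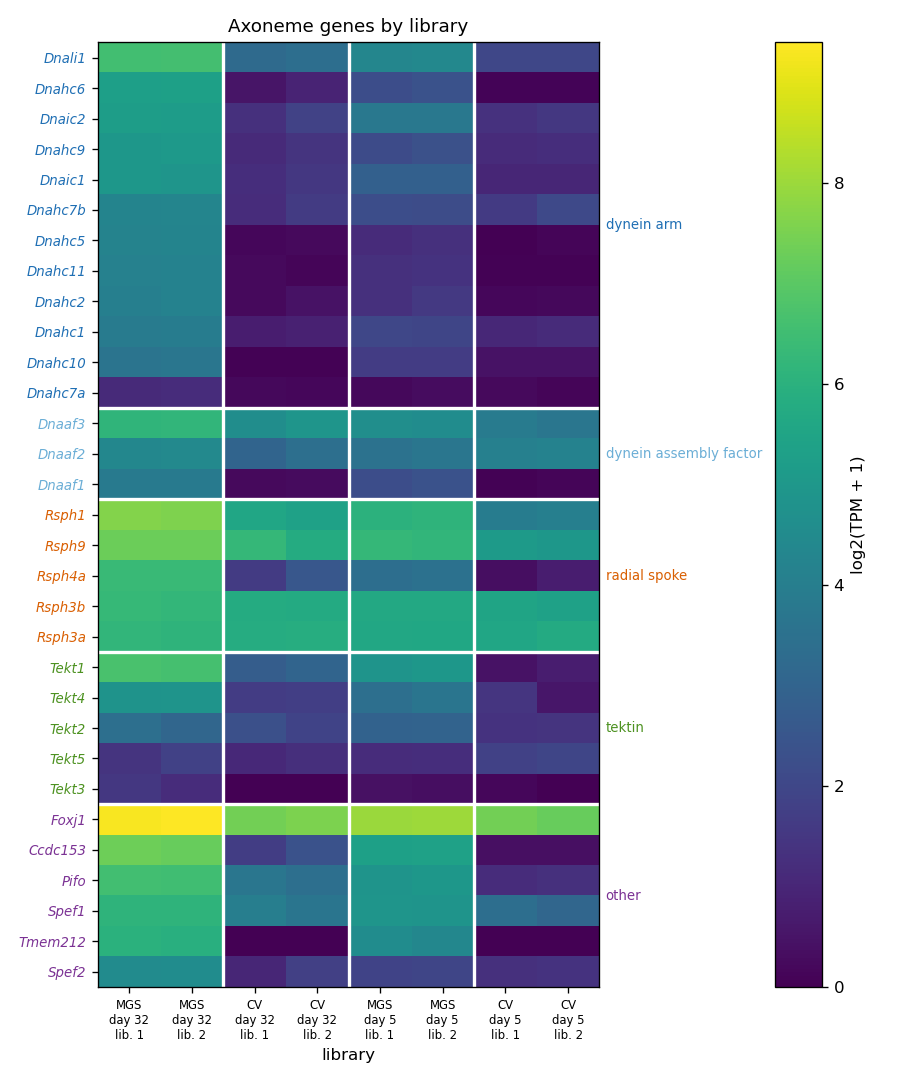
Level of each of the 31 kept genes (rows, grouped by structure) in each of the 8 libraries (columns), as log2(TPM + 1) in colour. The MGS libraries at day 32, on the left, hold the highest value of 30 of the 31 genes, and Tekt5 is the exception.

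At day 5, 23 of the 31 genes were called higher in MGS and 1 lower, while 22.5% of all genes tested were called higher and 26.4% lower. The same 23 were also called higher at day 32. The median fold change was 1.24, against -0.142 over all genes. Both MGS libraries stood above both CV libraries in 27 genes and below them in 2, as they did in 34.4% and 49.2% of genes tested. The gene called lower was Tekt5. The summed level of the 31 genes was 765 to 780 TPM in MGS at day 5 against 346 to 366 TPM in CV at day 5, and Foxj1, Rsph3a and Rsph3b made up most of the CV sum. Without these 3 genes it was 415 to 424 TPM in MGS at day 5 against 105 to 108 TPM in CV at day 5.

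**Figure D2:**
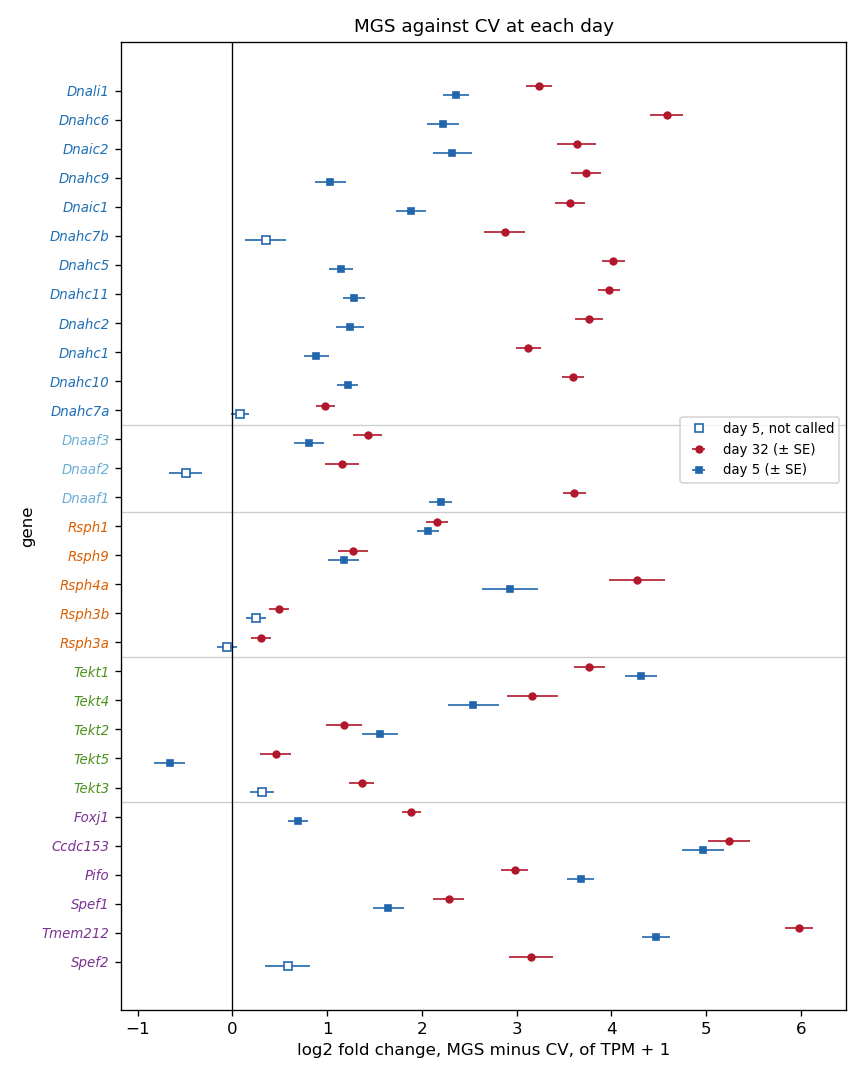
Log2 fold change of TPM + 1, MGS minus CV, for each gene at day 32 (circles) and day 5 (squares), with bars of 1 SE from the limma fit and open symbols where a gene was not called. All day 32 points lie right of 0, and at day 5 Tekt5, at -0.66, is the called gene to the left of it. Tmem212 is listed at 0 in all CV libraries, so its position depends on the pseudocount.

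Foxj1, the transcription factor of motile ciliogenesis (chromosome 11, 116330704 to 116335354, minus strand, mm10), was the most abundant of the 31 genes in every library. It stood at 627 and 676 TPM in MGS at day 32 against 166 and 184 TPM in CV at day 32. In the day 5 libraries it was at 251.0 and 258.7 TPM in MGS against 166 and 148 TPM in CV. The groups did not overlap at either day, and all 4 CV libraries also held Foxj1 at a high level. The fold change was 1.89 (SE 0.10, adjusted p = 6.76e-06, limma) at day 32 and 0.70 (SE 0.10, adjusted p = 0.00129) at day 5.

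Tmem212 and Ccdc153, which are used as markers of ependymal cells, had the largest differences on the log2(TPM + 1) scale at both days. Tmem212, a membrane protein gene (chromosome 3, 27866065 to 27896368, minus strand), had 64.0 and 60.2 TPM in MGS at day 32 and 23.0 and 19.5 TPM in MGS at day 5, and was listed at 0 in all 4 CV libraries. No fold is given against CV. Ccdc153, a coiled-coil protein gene (chromosome 9, 44240677 to 44247306, plus strand), had 159 and 147 TPM in MGS at day 32 against 2.23 and 4.14 TPM in CV at day 32. At day 5 it had 39.5 and 40.5 TPM in MGS against 0.301 and 0.322 TPM in CV. As a ratio of mean TPM at day 32, MGS over CV, Ccdc153 (47.9) lay below Dnahc10 (270.0), Dnahc11 (125) and Dnahc5 (119), which every CV library listed below 1 TPM. The fold change of Ccdc153 was 5.24 (SE 0.22, adjusted p = 2.3e-06, limma) at day 32 and 4.96 (SE 0.22, adjusted p = 3.79e-06) at day 5.

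Pifo encodes a protein known at the base of cilia. It had 93.1 and 91.0 TPM in MGS at day 32 against 11.8 and 9.93 TPM in CV, and 28.5 and 30.2 TPM in MGS at day 5 against 1.302 and 1.44 TPM in CV. The fold change was 2.98 (SE 0.14, adjusted p = 3.84e-06, limma) at day 32 and 3.68 (SE 0.14, adjusted p = 2.03e-06) at day 5. Spef1, a microtubule-binding protein of the central apparatus, had 68.4 and 69.0 TPM in MGS at day 32 against 15.1 and 11.7 TPM in CV. At day 5 Spef1 was at 29.2 and 28.3 TPM in MGS against 9.47 and 7.65 TPM in CV. Spef2, a protein of the central pair needed for sperm flagella in mice, had 22.2 and 22.7 TPM in MGS at day 32 against 1.04 and 2.42 TPM in CV. At day 5 its libraries held 2.75 and 2.88 TPM in MGS against 1.47 and 1.61 TPM in CV. This difference at day 5 did not pass the test (0.58, SE 0.24, adjusted p = 0.0763, limma), although the libraries did not overlap.

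**Figure D3:**
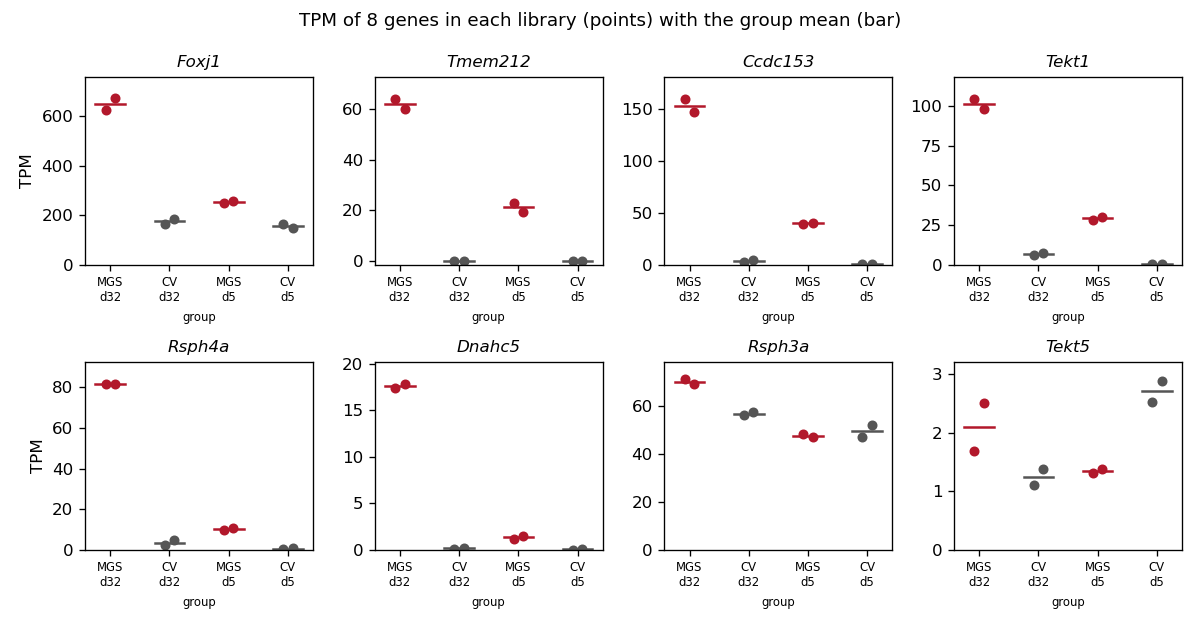
TPM of 8 genes in each library (points; bars are the means of 2 libraries), with MGS in red and CV in grey. In 7 of the panels MGS at day 32 is above the other groups in both libraries. In Tekt5 both CV libraries at day 5 are the highest, at 2.54 and 2.88 TPM.

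All 12 dynein arm genes were called higher in MGS at day 32, and 10 at day 5, with medians of 3.61 and 1.23. Of all genes tested, 52.8% were called higher at day 32 and 22.5% at day 5. Dnahc10, Dnahc11, Dnahc2, Dnahc5, Dnahc6 and Dnahc7a passed the filter only through MGS, so these counts and medians are a description. Dnali1, the light intermediate chain of inner arms, was the most abundant of them, at 93.5 and 95.2 TPM in MGS at day 32 against 8.59 and 9.66 TPM in CV. At day 5 it had 18.9 and 20.1 TPM in MGS against 2.98 and 3.02 TPM in CV (fold change 2.36, SE 0.14, adjusted p = 1.15e-05, limma). The intermediate chains of the outer arm moved the same way. Dnaic1 had 30.4 and 28.8 TPM in MGS at day 32 against 1.32 and 1.90 TPM in CV, and 6.40 and 6.41 TPM in MGS at day 5 against 0.989 and 1.01 TPM in CV. Dnaic2 had 36.6 and 35.8 TPM in MGS at day 32 against 1.46 and 2.63 TPM in CV, and 12.6 and 12.4 TPM in MGS at day 5 against 1.56 and 1.84 TPM in CV. In both genes both MGS libraries stood above both CV libraries at each day, as in 63.6% of genes tested at day 32 and 34.4% at day 5.

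The heavy chains are the motors of the arms. Summed, the 9 heavy chains had 163 to 171 TPM in MGS at day 32, 4.28 to 6.32 TPM in CV at day 32, 20.3 to 22.0 TPM in MGS at day 5 and 5.14 to 6.66 TPM in CV at day 5. Dnahc5, a heavy chain of the outer arm (chromosome 15, 28203766 to 28472045, plus strand), had 17.5 and 17.8 TPM in MGS at day 32 against 0.126 and 0.170 TPM in CV. At day 5 it had 1.21 and 1.48 TPM in MGS against 0.0103 and 0.102 TPM in CV. All CV libraries therefore listed it far below 1 TPM. Its fold change was 4.02 (SE 0.12) at day 32 and 1.15 (SE 0.12) at day 5, given as a description because the gene passed the filter only through MGS. Dnahc9, also of the outer arm, had 30.2 and 32.1 TPM in MGS at day 32 against 1.19 and 1.67 TPM in CV, and 3.41 and 3.998 TPM in MGS at day 5 against 1.23 and 1.36 TPM in CV. Dnahc11, which the outer arm holds too, had 16.6 and 17.1 TPM in MGS at day 32 against 0.172 and 0.0979 TPM in CV, and 1.47 and 1.57 TPM in MGS at day 5 against 0.0346 and 0.0396 TPM in CV. In Dnahc9 and Dnahc11 both MGS libraries stood above both CV libraries at each day. The same order held in 63.6% of genes tested at day 32 and in 34.4% at day 5. For Dnahc11 it is a description, because the gene passed the filter only through MGS. Dnahc6, an inner arm chain, was the most abundant heavy chain, at 38.5 and 39.9 TPM in MGS at day 32 against 0.458 and 0.932 TPM in CV, and 3.71 and 4.18 TPM in MGS at day 5 against 0.0599 and 0.0575 TPM in CV. Dnahc7b, another inner arm chain, had 18.1 and 18.6 TPM in MGS at day 32 against 1.26 and 2.07 TPM in CV, and 3.68 and 3.53 TPM in MGS at day 5 against 2.06 and 3.25 TPM in CV. Dnahc7a and Dnahc7b were not called at day 5 (adjusted p = 0.518 and 0.212, limma). These are close copies of each other, and reads could have been split between them.

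Transcript length goes with these values. The heavy chain transcripts are 12245 to 15637 bases long, and of the 161 genes tested with transcripts of at least 12000 bases 90.1% were called higher in MGS at day 32, with a median fold change of 1.84. At day 5, 13.0% of them were called higher, with a median of -0.507. After removal of the trend with length and GC content, 8 of the 9 heavy chains were called higher at day 32, with a median of 1.99 in place of 3.73, and 8 at day 5, with a median of 1.47 in place of 1.15. Of all genes, the corrected fit called 30.7% higher and 39.4% lower at day 32, and 26.2% higher and 39.0% lower at day 5. The chain not called at day 32 was Dnahc7a, whose sign turned.

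The dynein assembly factors act in the cytoplasm, where arms are put together before transport. Dnaaf1 had 13.4 and 13.6 TPM in MGS at day 32 against 0.182 and 0.198 TPM in CV, and 3.67 and 4.15 TPM in MGS at day 5 against 0.0386 and 0.0993 TPM in CV. Dnaaf3 had 70.6 and 72.9 TPM in MGS at day 32 against 23.1 and 29.3 TPM in CV, and 24.2 and 23.0 TPM in MGS at day 5 against 14.2 and 11.9 TPM in CV. Both were called higher at both days, which for Dnaaf1 is a description because the gene passed the filter only through MGS. Dnaaf2 had 19.3 and 20.6 TPM in MGS at day 32 against 7.13 and 9.83 TPM in CV (1.16, SE 0.18, adjusted p = 0.000964, limma). At day 5 it had 10.8 and 12.02 TPM in MGS against 16.1 and 16.8 TPM in CV, which did not pass the test (-0.49, SE 0.18, adjusted p = 0.0514, limma) but did under median-of-ratios scaling (-0.31, adjusted p = 0.0418). Genes on the other strand overlap Dnaaf1 (Taf1c), Dnaaf2 (9330151L19Rik), Dnahc11 (Cdca7l), Dnaic1 (Enho), Dnaic2 (Mir466n), Dnali1 (Gnl2) and Spef1 (Mir3110), and the use of strand in counting is not given in the sources used here.

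The radial spoke genes were all called higher at day 32, and 3 of the 5 at day 5. Of all genes tested, 52.8% were called higher at day 32 and 22.5% at day 5. Rsph4a, a component of the spoke head, had 81.5 TPM in each MGS library at day 32 against 2.13 and 4.87 TPM in CV, and 9.60 and 10.5 TPM in MGS at day 5 against 0.264 and 0.668 TPM in CV. Its fold change was 4.27 (SE 0.29, adjusted p = 1.84e-05, limma) at day 32 and 2.93 (SE 0.29, adjusted p = 0.000176) at day 5. Rsph1, another spoke head gene, had 200.4 and 191 TPM in MGS at day 32 against 45.8 and 40.7 TPM in CV, and 64.1 and 69.2 TPM in MGS at day 5 against 14.6 and 15.7 TPM in CV. Rsph9, also of the head, had 154 and 156 TPM in MGS at day 32 against 75.1 and 53.5 TPM in CV, and 75.3 and 72.5 TPM in MGS at day 5 against 33.6 and 30.9 TPM in CV. All 3 head genes were called higher at both days, and in none of them did the cultures overlap within a day. The call of Rsph9 at day 32 was lost under median-of-ratios scaling (0.65 in place of 1.27, adjusted p = 0.0581). Rsph3a and Rsph3b, near-identical copies of a stalk gene, were at similar levels in both cultures. Rsph3a had 71.2 and 69.0 TPM in MGS at day 32 against 56.1 and 57.3 TPM in CV (0.30, SE 0.11, adjusted p = 0.037, limma), a sign that flipped to -0.32 under median-of-ratios scaling. Rsph3b had 77.6 and 73.7 TPM in MGS at day 32 against 54.5 and 52.6 TPM in CV (0.49, SE 0.10, adjusted p = 0.00477), a sign that flipped to -0.14 under the same scaling. Neither was called at day 5.

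Of the tektins, Tekt1 differed most (chromosome 11, 72344720 to 72361880, minus strand). It had 104 and 98.1 TPM in MGS at day 32 against 5.87 and 7.19 TPM in CV, and 28.2 and 30.2 TPM in MGS at day 5 against 0.385 and 0.664 TPM in CV. Its fold change was 3.77 (SE 0.17, adjusted p = 2.73e-06, limma) at day 32 and 4.31 (SE 0.17, adjusted p = 1.94e-06) at day 5. Tekt4 had 27.5 and 28.5 TPM in MGS at day 32 against 2.17 and 2.32 TPM in CV, and 9.93 and 11.6 TPM in MGS at day 5 against 1.72 and 0.498 TPM in CV. Tekt2 had 9.76 and 7.67 TPM in MGS at day 32 against 3.94 and 2.68 TPM in CV, and 6.69 and 6.95 TPM in MGS at day 5 against 1.61 and 1.69 TPM in CV. Both were called higher at both days, although Tekt2 was not called at day 32 under quantile normalization (0.16 in place of 1.18, adjusted p = 0.617). Tekt3 and Tekt5, tektins known from sperm flagella, were low throughout. Tekt3 had 1.87 and 1.304 TPM in MGS at day 32 and was listed at 0 in CV at day 32, and at day 5 it had 0.356 and 0.283 TPM in MGS against 0.125 and 0 TPM in CV. Tekt5 had 1.69 and 2.52 TPM in MGS at day 32 against 1.11 and 1.38 TPM in CV (0.46, SE 0.16, adjusted p = 0.0374, limma), a sign that flipped to -0.52 under quantile normalization and a call that was lost under median-of-ratios scaling. At day 5 Tekt5 had 1.31 and 1.37 TPM in MGS against 2.54 and 2.88 TPM in CV (-0.66, SE 0.16, adjusted p = 0.0123, limma). The call at day 5 was lost without either MGS library of that day and without CV library 2.

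Within MGS, 29 of the 31 genes were called higher at day 32 than at day 5 and 0 lower, while 35.0% of all genes tested were called higher and 7.53% lower. The median change was 1.56, against 0.365 over all genes. Under median-of-ratios scaling 22.8% of all genes were called higher and 22.7% lower, and 26 of the 31 genes were called higher and 0 lower. In all 31 genes both libraries of day 32 lay above both of day 5, as they did in 67.9% of genes tested, while 20.7% had the opposite order. Tekt2 and Tekt5 did not pass the test (adjusted p = 0.226 and 0.0837, limma). The largest change was 3.02, in Dnahc6, and the median of the 9 heavy chains was 2.69. In genes with transcripts of at least 12000 bases 82.0% were called higher over this time, and after the length and GC correction the median of the heavy chains was 1.57.

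Within CV, 12 of the 31 genes were called higher at day 32 than at day 5 and 3 lower, while 16.0% of all genes tested were called higher and 37.7% lower. Under median-of-ratios scaling these shares were 27.3% and 26.8%, and 17 of the 31 genes were called higher and 3 lower. Both libraries of day 32 lay above both of day 5 in 20 genes and below them in 4, as they did in 22.3% and 49.8% of genes tested. On the log2(TPM + 1) scale Pifo (2.32, SE 0.14, adjusted p = 2.11e-05, limma) and Tekt1 (2.31, SE 0.17, adjusted p = 4.71e-05) rose most, followed by Ccdc153 (1.64), Rsph4a (1.56), Rsph1 (1.45) and Dnali1 (1.34). These genes stayed below their MGS level of day 5 in every CV library of day 32. As a ratio of mean TPM, day 32 over day 5, Tekt1 (12.4), Dnahc6 (11.8) and Ccdc153 (10.2) lay above Pifo (7.9). Dnahc6 was also called higher (0.66) but stayed below 1 TPM in every CV library. The genes called lower were Dnaaf2 (-0.90), Tekt5 (-0.73) and Dnahc10 (-0.40). Dnahc10 lay below 1 TPM in every CV library, and its call was lost with FPKM (-0.19, adjusted p = 0.065, limma). The change of Dnahc10 turned to 0.51 after the length and GC correction. Under that correction 22 of the 31 genes were called higher and 3 lower, against 25.1% and 36.3% of all genes. Foxj1 did not pass the test within CV (0.16, SE 0.10, adjusted p = 0.239, limma), but was called higher at day 32 under median-of-ratios scaling (0.55, adjusted p = 0.0166), with FPKM (0.42, adjusted p = 0.0183) and with the correction for length and GC (0.34, adjusted p = 0.00187).

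The difference between the cultures was larger at day 32 than at day 5 for 22 genes and smaller for 1, tested as the interaction of culture and day, while 49.7% of all genes tested were called in the same direction as the 22 and 12.3% in the other. The median of the 31 genes was 1.19, against 0.654 over all genes, and the median of all genes was -0.07 under median-of-ratios scaling, where 17 of the 31 genes were called larger and 4 smaller, against 28.7% and 31.6% of all genes. All 12 dynein arm genes were among the 22, and so were 1 of 5 radial spoke genes and 2 of 5 tektins. Pifo was the gene with the smaller difference at day 32 (-0.70, SE 0.20, adjusted p = 0.0204, limma). Its call was lost when any 1 of the 4 MGS libraries was left out (-0.66 to -0.74). Foxj1 had an interaction of 1.19 (SE 0.15, adjusted p = 0.000677), which was 0.36 and not called under median-of-ratios scaling (adjusted p = 0.161). With a pseudocount of 0.1, 17 of the 31 genes were called larger and 2 smaller, against 7063 and 1786 of all 14904 genes. Dnahc6 (1.02, adjusted p = 0.0832, limma) and Rsph4a (0.36, adjusted p = 0.647) were among those that lost the call. Both calls thus depended on the pseudocount. As a ratio of mean TPM, MGS over CV, Dnahc6 had 67.3 at day 5 and 56.4 at day 32, and Rsph4a 21.6 and 23.3. All other heavy chains had larger ratios at day 32. Across the 31 genes the interaction followed transcript length, with a Spearman correlation of 0.83, and across 14796 genes with 0.53. Genes share libraries and are not independent, so no p is given. After the length and GC correction, 1 of the 9 heavy chains was called larger and 1, Dnahc7a, smaller, with a median of 0.375 in place of 2.52. Of the other 22 genes 15 were called larger and 1 smaller under that correction, with a median of 0.717 in place of 0.760. Of all genes, 32.1% were called larger and 25.8% smaller under it.

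**Figure D4:**
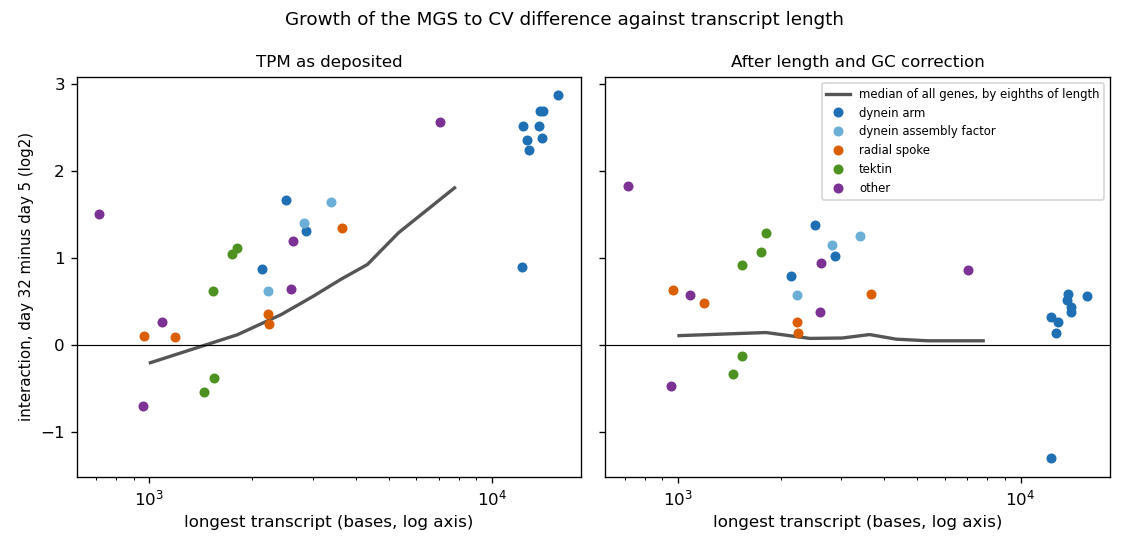
Interaction of culture and day (log2, the MGS minus CV difference at day 32 less that at day 5) against the length of the longest transcript (bases, log axis), with TPM as deposited (left) and after a length and GC correction (right). Points are the 31 genes coloured by structure, and the line joins medians of all genes in 8 parts by length. On the left 8 of the 9 heavy chains lie at 2.24 to 2.87, beyond the end of the rising line, and on the right the same 8 lie between 0 and 0.58.

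Other genes of motile and primary cilia, from lists chosen with earlier results known, were read from the same fit. Of 61 further axoneme genes tested, 59 were called higher in MGS at day 32 and 1 lower (Dynll1, -0.29), and 52 higher and 1 lower at day 5. The largest at day 5 were Ak7, an adenylate kinase of motile cilia, with 18.9 and 20.2 TPM in MGS against 0.0671 and 0 TPM in CV, Dynlrb2, a dynein light chain, with 76.0 and 84.7 TPM against 4.27 and 5.88 TPM, Tctex1d4, with 11.02 and 12.3 TPM against 0 in both CV libraries, and Spag6, of the central apparatus, with 16.9 and 18.2 TPM against 1.01 and 0.905 TPM. The gene called lower at day 5 was Mns1 (-0.82, SE 0.12, adjusted p = 0.00126, limma). Of 62 genes of intraflagellar transport and the primary cilium, 52 were called higher and 0 lower in MGS at day 32, where 52.8% of all genes were called higher. At day 5, 13 were called higher and 7 lower, with a median of 0.0779, and the share called higher was near the 22.5% of all genes. Wdr35 and Gpr161 were among those lower in MGS at day 5 (-1.07 and -0.96), and Mks1 and Kif17 among those higher (0.86 and 0.80).

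Regulators of multiciliation act upstream of the axoneme genes. Of 19 tested, 15 were called higher and 1 lower in MGS at day 32, and 9 higher and 3 lower at day 5. Of all genes tested, 52.8% were called higher and 14.8% lower at day 32, and 22.5% higher and 26.4% lower at day 5. The summed level of the 19 at day 5 was lower in MGS, at 352 to 358 TPM, than in CV, at 407 to 461 TPM. At day 32 it was 568 to 570 TPM in MGS against 169 to 269 TPM in CV. Ccdc67, named Deup1 in RefSeq and known for building the extra centrioles of multiciliated cells, had 8.30 and 8.29 TPM in MGS at day 5 and was listed at 0 in both CV libraries of day 5. Trp73, a transcription factor of the p53 family, had 3.31 and 4.24 TPM in MGS at day 5 against 0.150 and 0.221 TPM in CV. Ankrd66 was higher by 2.08, and Jazf1 was the largest of the genes lower in MGS at day 5 (-1.89, SE 0.19, adjusted p = 0.00017, limma). Gmnc, Ccno and Myb, chosen after their values were seen, had fold changes of 0.97, 1.88 and 1.89 at day 5 and 3.56, 3.99 and 4.03 at day 32. These lay above the median of the 19 genes, which was 0.264 at day 5, where 7 were not called, and 2.2 at day 32. Over all genes the median was -0.142 at day 5 and 0.558 at day 32.

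Markers of other cell types were read from the same fit. Of 12 ependymal markers outside the name rule, 11 were called higher and 0 lower in MGS at each day, and the summed level of the 13 measured was 1860 to 1970 TPM in MGS at day 32, 725 to 739 TPM in CV at day 32, 760 to 763 TPM in MGS at day 5 and 401 to 467 TPM in CV at day 5. Ak7, Dynlrb2, Hydin and Enkur stand on this list and on that of further axoneme genes. Of 13 markers of choroid plexus epithelium, 12 were called higher at day 32, and 11 higher and 1 lower (Otx2, -0.90) at day 5. Their summed level was 2400 to 2430 TPM in MGS at day 32, 136 to 149 TPM in CV at day 32, 13100 to 17500 TPM in MGS at day 5 and 195 to 199 TPM in CV at day 5, and in MGS most of it was Ttr, the thyroxine carrier. Within MGS this list ran against the axoneme genes, with 1 gene called higher and 6 lower at day 32 than at day 5, and within CV 1 was called higher and 5 lower. Of all genes tested, 35.0% were called higher and 7.53% lower over time in MGS, and 16.0% higher and 37.7% lower in CV. The share of the choroid plexus list called lower in CV was near that of all genes. Of the ependymal list 1 gene was listed at 0 in both CV libraries at day 32 and 2 at day 5. Of the other lists, astrocyte markers (10 tested) had 9 called higher and 1 lower in MGS at day 32 and 6 higher and 1 lower at day 5. All 6 meningeal fibroblast markers were called higher at both days. Their summed level was 12600 TPM in MGS at day 32 against 221 to 287 TPM in CV. At day 5 it was 10300 to 12100 TPM in MGS against 282 to 311 TPM in CV. All 6 microglia markers were called lower in MGS at day 32 and higher at day 5. Of 6 neuron markers, 3 were called higher and 1 lower at day 32, and 2 higher and 3 lower at day 5. Of all genes tested, 52.8% were called higher and 14.8% lower at day 32, and 22.5% higher and 26.4% lower at day 5. The neuron counts at day 32 were near these shares. The part of these cell types in the levels of the axoneme genes was not tested.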

How the data were processed

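Libraries were made from total RNA with a directional kit, per the labels' protocols, and the submitters' processing notes name the tools bcl2fastq, StringTie 1.3.4d and HISAT2 2.1.0 and the builds mm10 and hg38, without roles. Coordinates are those of the files. The authors deposited TPM, FPKM and coverage per gene, per the file headers. TPM was tested, the deposited FPKM served as an alternative, and the deposited coverage (a signal per base) gave the sequencing depth. TPM keeps no read counts, so the spread between replicates is the only error used.

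Rows of 1 gene ID were summed, and genes with at least 1 TPM in at least 2 of 8 libraries were kept. limma 3.58.1 (R 4.3.3) fitted 4 group means to log2(TPM + 1) with a pseudocount of 1, 4 residual degrees of freedom and a variance trend, two-sided, and Benjamini-Hochberg adjustment ran over all 14904 genes. Genes with an adjusted p under 0.05 are the called ones. The fit was tested on simulated data. With 2 libraries against 2, an exact permutation test cannot give a p below 0.333, so none was run. Groups and replicate numbers came from the sample titles. The length and GC correction used the longest GENCODE transcript of each gene, available for 99.3% of genes tested and all 31 described. Alternatives covered scaling, unit, pseudocount, filter, spread, samples fitted, each library left out and a replicate block.

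The genes, lists and tests were chosen with earlier results of these data known. The named genes are Foxj1, Pifo, Ccdc153, Tmem212, Spef1, Spef2, all radial spoke and tektin genes, the 8 dynein arm genes and up to 8 assembly factors with the highest group mean, and up to 4 called genes of each further list by change at day 5. Dnahc1, Dnahc2, Dnahc7a, Dnahc8, Dnahc10, Dnahc17, Rsph6a and the genes named with small counts fall outside this and were named after their values were seen.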

Additional observations from a re-analysis of the deposited data

Results flagged for a closer look

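For 23 of the 31 genes the difference between the cultures itself differed between the days, by the limma interaction test at an adjusted p under 0.05, against 49.7% of all genes called larger and 12.3% smaller. Values are the log2 difference of MGS and CV at day 32 minus that at day 5. Among the dynein heavy chains they were 2.87 for Dnahc5, 2.70 for Dnahc9, 2.69 for Dnahc11, 2.52 for Dnahc7b, 2.52 for Dnahc2, 2.38 for Dnahc10, 2.36 for Dnahc6, 2.24 for Dnahc1 and 0.90 for Dnahc7a. The other dynein arm genes had 1.67 (Dnaic1), 1.31 (Dnaic2) and 0.88 (Dnali1). The assembly factors had 1.65 (Dnaaf2), 1.41 (Dnaaf1) and 0.62 (Dnaaf3). Further values were 2.57 for Spef2, 1.51 for Tmem212, which is listed at 0 in CV at both days, 1.34 for Rsph4a, 1.19 for Foxj1, 1.12 for Tekt5, 1.05 for Tekt3, 0.64 for Spef1 and -0.70 for Pifo. Outside the heavy chains, calls were lost under median-of-ratios scaling for Foxj1 (0.36), Dnali1 (0.11), Rsph4a (0.67), Spef1 (-0.15) and Dnaaf3 (-0.19). Under quantile normalization they were lost for Tekt5 (0.54), Spef1 (0.07) and Dnaaf3 (0.07), and with FPKM for Spef1 (0.18) and Dnaaf3 (0.14). A pseudocount of 0.1 ended the calls of Dnaaf1 (0.96), Rsph4a (0.36), Spef1 (0.62) and Dnaaf3 (0.61), and that of the heavy chain Dnahc6 (1.02). The length and GC correction ended that of Spef1 (0.38). Leaving out any 1 of the 4 MGS libraries ended the calls of Pifo, Rsph4a, Spef1 and Dnaaf3. The genes that passed the filter only through MGS are listed as descriptions. The heavy chains have the longest transcripts, and the median interaction of the 161 genes of at least 12000 bases was 2.38, with 86.3% called in this direction. The part of transcript length in these values was not tested beyond the length and GC correction, which left 1 of the 9 heavy chains called larger.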

How the results depend on the processing

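The count of genes called higher stayed within 26 to 31 at day 32, 23 to 26 at day 5, 25 to 30 over time in MGS and 16 to 24 in the interaction over all alternatives run, and within 8 to 22 over time in CV, with 22 under the length and GC correction, with and without the replicate block. Leaving out each library gave 8 to 14 genes called higher over time in CV and 1 to 4 lower. Genes called lower in MGS at day 5 numbered 2 under median-of-ratios scaling, FPKM, no variance trend, the groups compared alone and the replicate block, 3 under quantile normalization and the length and GC correction (with or without the block), and 0 to 2 with a library left out. At day 32 the number was 1 under quantile normalization and under the length and GC correction with the block. In the interaction the genes called smaller numbered 4 under median-of-ratios scaling, 3 under quantile normalization, 2 with a pseudocount of 0.1, 2 under the length and GC correction (with or without the block) and 0 to 2 with a library left out. Replicate numbers were not taken as pairing the samples, since the replicate deviations of pairs of groups correlated with r from -0.131 to 0.444, the highest between CV at day 32 and CV at day 5. With the replicate block alone 30 genes were called higher at day 32, 23 at day 5, 29 over time in MGS, 12 over time in CV and 21 in the interaction. It ended the calls of Rsph3a at day 32 (adjusted p = 0.0543, limma) and Dnaaf3 in the interaction (adjusted p = 0.0502), and Dnaaf2 was called lower at day 5 (adjusted p = 0.0368).

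Signs turned as follows, and the cause was not tested. At day 5, Dnahc7a (-0.37) and Tekt3 (-0.087) turned under quantile normalization, and Rsph3a turned under median-of-ratios scaling (0.14), quantile normalization (0.15), FPKM (0.082) and without CV day 5 replicate 2 (0.022, with -0.13 as the lowest value of the libraries left out). At day 32, Rsph3a turned under median-of-ratios scaling (-0.32), quantile normalization (-0.017), FPKM (-0.080) and the length and GC correction with or without the block (-0.021), Rsph3b under median-of-ratios scaling (-0.14), Tekt5 under quantile normalization (-0.52) and Dnahc7a under the length and GC correction with or without the block (-0.67). Over time in MGS, Dnahc7a turned under the length and GC correction with or without the block (-0.32), Tekt2 under median-of-ratios scaling (-0.078) and quantile normalization (-0.35), and Tekt5 under quantile normalization (-0.048). Over time in CV, the length and GC correction with or without the block turned Dnahc1 (0.63), Dnahc10 (0.51) and Dnahc7b (0.52), quantile normalization turned Dnahc7a (-0.020), and values with a library left out ran from -0.038 to 0.056 for Dnahc7a, -0.068 to 0.22 for Dnahc9, -0.13 to 0.43 for Dnaic2, -0.32 to 0.43 for Spef2 and -0.17 to 0.00 for Tekt3. In the interaction, median-of-ratios scaling turned Ccdc153 (-0.40), Dnaaf3 (-0.19), Rsph1 (-0.73), Rsph3a (-0.46), Rsph3b (-0.58), Rsph9 (-0.72), Spef1 (-0.15) and Tekt4 (-0.040). Quantile normalization turned Rsph1 (-0.23), Rsph3a (-0.16), Rsph3b (-0.27) and Rsph9 (-0.25), and FPKM turned Rsph1 (-0.37), Rsph3a (-0.16), Rsph3b (-0.27) and Rsph9 (-0.40). A pseudocount of 0.1 turned Ccdc153 (-1.005), the length and GC correction with or without the block turned Dnahc7a (-1.30), and values with a library left out ran from -0.065 to 0.61 for Ccdc153 and -0.14 to 0.34 for Rsph9, lowest without a library of CV at day 32. Depth is unknown per gene because TPM keeps no counts, and the CV libraries were the shallower and noisier ones.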

Other observations

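The files carry 35 older symbols of genes that RefSeq names Cfap, and 33 of these symbols were tested. Cfap299 and Cfap47 each stand under a pair of them, and Wdr16 (Cfap52) is also on the list of further axoneme genes. At day 32 the median fold change of the 33 was 2.72, and 31 were called higher in MGS and 0 lower. At day 5 it was 1.76, and 25 were called higher in MGS and 2 lower. The genes called lower at day 5 were Ccdc104 and 4930452B06Rik, and the list was chosen with earlier results known. Over time in MGS 31 were called higher and 0 lower, and over time in CV 18 higher and 2 lower. The shares of all genes called higher were 52.8% at day 32, 22.5% at day 5, 35.0% over time in MGS and 16.0% over time in CV. The shares called lower were 14.8%, 26.4%, 7.53% and 37.7%, in the same order.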
